A study of Homo sapiens with 2 samples.

Results

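The heat shock protein and DNAJ chaperones are the proteins that help other proteins fold, keep them from clumping and hand them to the next machine of the cell. Their genes were taken here as every protein-coding gene whose symbol is HSPA, HSPB, HSPD, HSPE, HSPH, HSP90AA, HSP90AB, HSP90B, DNAJA, DNAJB or DNAJC followed by a number and at most 1 further letter. This gave 71 genes out of 62699 gene IDs with counts, and 15 more symbols that fit the pattern were left out because GENCODE 29 does not list them as protein coding. By where the protein is known to work, 46 were placed in the cytosol or nucleus, 14 in the endoplasmic reticulum (ER) and 9 in mitochondria, and 2, DNAJC22 and DNAJC28, were given no compartment. RNA came from HCC1954, an established human breast cancer cell line with high HER2, in 1 library labelled ASO-1235 and 1 labelled ASO-NC by genotype. The labels give no dose, time or number of cultures, and the title of the ASO-1235 library begins with Si, not ASO. The series title names LINC01235 as the RNA under study, and this gene had 0 counts in the ASO-1235 library, where 3 counts would be 0.0768 CPM (counts scaled to a library of 1000000), and 1337 counts in the ASO-NC library, or 28.6 CPM.

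Chaperones work as a relay. J proteins (the DNAJ families) carry a J domain that delivers clients to HSP70 proteins (HSPA) and triggers their ATP hydrolysis, nucleotide exchange factors such as the HSP110 proteins reset the cycle, and HSP90 takes over many kinases and receptors, HER2 among them, for the last steps of folding. Small heat shock proteins (HSPB) hold unfolded proteins without using ATP, and in mitochondria HSPD1 and HSPE1 form a closed chamber for folding. Most of these genes are expressed without stress. HSF1 raises the cytosolic ones after heat or proteotoxic stress, while ATF6 and XBP1 raise the ER ones in the unfolded protein response.

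In all, 37916307 counts were assigned to 27088 genes in the ASO-1235 library, and 48092494 counts to 26353 genes in the ASO-NC library. All 8 markers of HER2-positive breast epithelium were present, each at 151 CPM or more in ASO-1235 and 142 CPM or more in ASO-NC. Summed levels of markers of other cell types were low: 1.43 and 2.18 CPM for 5 immune markers, 41.6 and 45.2 CPM for 5 fibroblast markers, and 7.40 and 8.07 CPM for 4 endothelial markers. With a single library on either side, no spread between cultures is known, no difference below has a replicate check and no p-value is given. Every ratio below is ASO-1235 over ASO-NC on libraries scaled by TMM. In brackets follows a 95% interval that covers counting error only, computed on halved counts because 64.0% and 67.5% of counts from 1 to 1000 were even in ASO-1235 and ASO-NC. To be called higher or lower, a gene needed 1 CPM in either library, a difference of 1.5-fold or more and an interval that left out 1.

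As a group the chaperone genes were close to alike in the 2 libraries. Of the 71 genes, 57 reached 1 CPM, with 32 ratios above 1 and 25 below 1 and a median log2 ratio of 0.03, beside 0.00 over all 14352 genes at that level. The median of the chaperone genes was −0.03 once a trend with GC content and length was removed. Called higher were 3 genes, DNAJC6, DNAJC25 and DNAJB9, and 0 were called lower, while of all genes 5.20% were called higher and 2.0% lower. Without a minimum size, the interval left out 1 on the high side for 15 members (26.3%) and on the low side for 14 (24.6%), beside 22.8% and 23.0% of all genes. These shares lie near the background. In bulk RNA, less RNA per cell and fewer cells that hold it cannot be told apart. Together the 71 genes took 0.858% of all counts in ASO-1235 (exact interval 0.854 to 0.862) and 0.864% in ASO-NC (0.860 to 0.868).

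**Figure D1:**
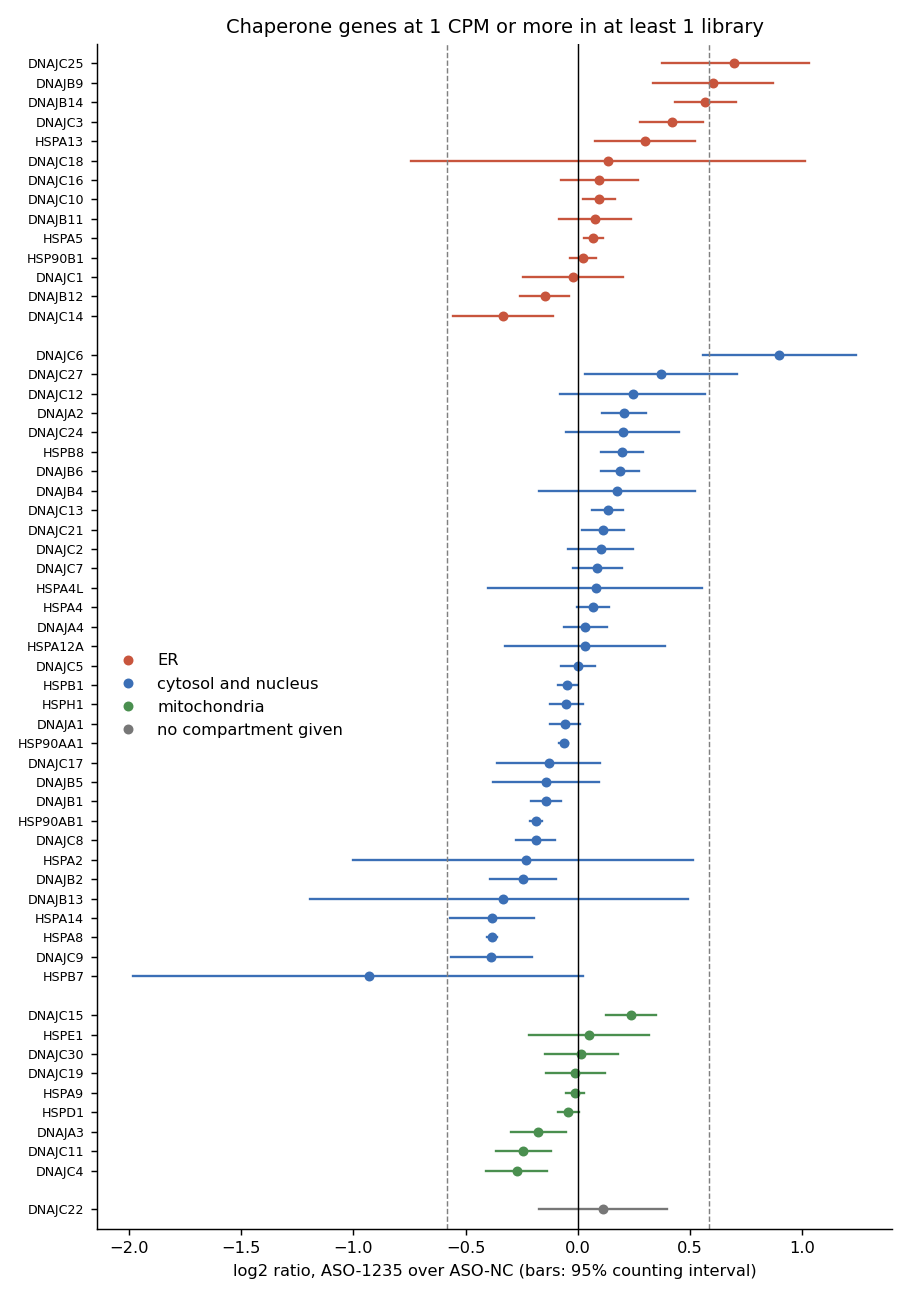
Log2 ratio, ASO-1235 over ASO-NC, of the 57 chaperone genes that reached 1 CPM in either library, by compartment and sorted within it, with bars for the 95% counting interval and dashed lines at 1.5-fold. Most points lie within 1.5-fold, with DNAJC25 and DNAJB9 of the ER and DNAJC6 of the cytosol past it on the right, and HSPB7 on the left with an interval that reaches 1.

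The compartments differed a little in their middle values. The 14 ER genes had a median log2 ratio of 0.09 and ran between −0.33 and 0.70, with 11 ratios above 1, a number that lay between 8 and 12 under the other scalings and after removal of a trend with GC content and length. The 33 cytosolic and nuclear genes at 1 CPM had a median of 0.00, with 17 ratios above 1 (13 to 21 under those alternatives). The 9 mitochondrial genes had a median of −0.01 and ran between −0.27 and 0.24, with 3 ratios above 1 (2 to 6). Of all chaperone counts, ER genes took 13.3% in ASO-1235 and 11.7% in ASO-NC, cytosolic genes 73.0% and 75.2%, and mitochondrial genes 13.5% and 13.0%. With 1 library a group, these differences between compartments were not tested.

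Per length of transcript, the same few genes led in either library. HSPA8, the constitutive cytosolic HSP70 that also strips clathrin from vesicles, stood at 523 CPM per kb in ASO-1235 and 683 CPM per kb in ASO-NC. The HSP90 genes followed, with HSP90AA1 at 439 and 459 CPM per kb and HSP90AB1 at 405 and 461 CPM per kb. HSPB1, which encodes HSP27, came next at 297 and 306 CPM per kb. The leading genes of the other compartments were lower: HSPD1 of mitochondria stood at 145 and 149 CPM per kb, and HSPA5 of the ER at 115 and 110 CPM per kb. HSPA9, the HSP70 of the mitochondrial matrix, was at 103 and 104 CPM per kb. The J proteins of highest level per length were DNAJB1 at 74.8 and 82.5 CPM per kb and DNAJA1 at 70.1 and 72.8 CPM per kb, well under the HSP70 and HSP90 they serve.

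**Figure D2:**
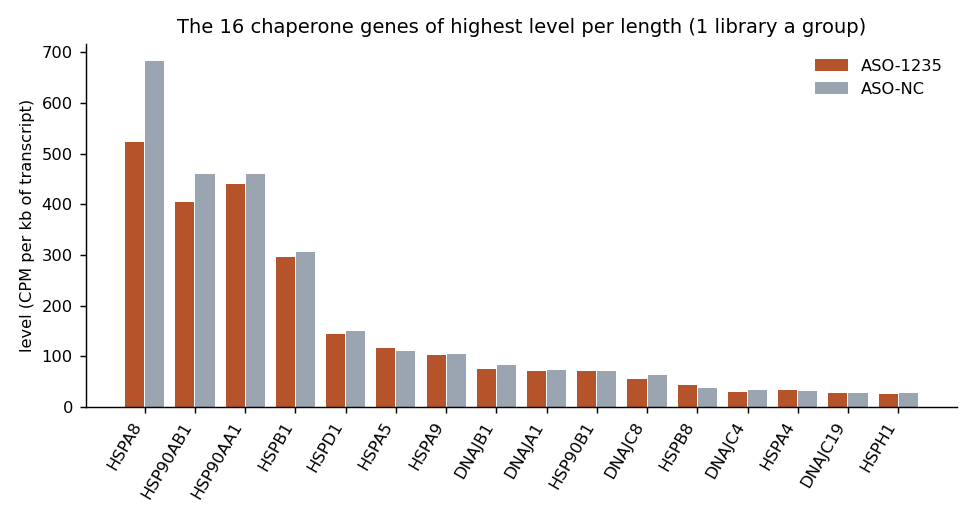
Level in CPM per kb of the longest annotated transcript for the 16 chaperone genes highest in ASO-NC, with ASO-1235 at the left and ASO-NC at the right of each pair (1 library each, no error bars). HSPA8 leads and shows the widest gap, 523 against 683 CPM per kb, while HSPD1, HSPA5 and HSPA9 nearly match.

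Among the HSP70 genes of the cytosol, HSPA8 and HSPA14 had intervals below 1. HSPA8 had 50320 counts in ASO-1235 and 78517 counts in ASO-NC, a ratio of 0.766 (0.754 to 0.779), which did not reach 1.5-fold. Together HSPA8, HSP90AA1 and HSP90AB1 made up 47.0% of chaperone counts in ASO-1235 and 50.9% in ASO-NC. HSPA14, an HSP70 relative that sits on ribosomes, had 782 and 1218 counts, a ratio of 0.768 (0.674 to 0.873). Its J protein partner on the ribosome, DNAJC2, was at 1.07 (0.971 to 1.19). Exons of other genes cover 17.4% of HSPA14, and 20.1% of its 100-base windows occur in transcripts of another gene ID, so its count is uncertain. HSPA2, best known from sperm development, had 54 and 76 counts, and HSPA12A, a distant relative, had 248 and 290 counts with a ratio of 1.02 (0.798 to 1.31).

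In GENCODE 29 (GRCh38), the minus-strand gene HSPA8 spans 123057489 to 123063230 of chromosome 11. Its promoter and that of the J protein gene DNAJA1 are shown because they hold the heat shock element, the motif bound by HSF1. The motif was searched as GAANNTTC or TTCNNGAA on both strands, and in a longer form of 3 alternating GAA and TTC units with 2 bases between them, which contains the shorter one. Sequences are from RefSeq on GRCh38.p14, 250 bases before to 50 bases after the gene's start in RefSeq, 5′ to 3′ on the gene's strand, with heat shock elements in capitals. The HSPA8 window is chr11:123062087-123062386 (minus strand) and the DNAJA1 window chr9:33025023-33025322 (plus strand). The RefSeq start differs from the outer end of the GENCODE gene, inside which it lies for HSPA8, DNAJA1 and, of the promoters shown further on, HSP90B1 and DNAJB9, while that of HSPA5 lies just outside.
HSPA8: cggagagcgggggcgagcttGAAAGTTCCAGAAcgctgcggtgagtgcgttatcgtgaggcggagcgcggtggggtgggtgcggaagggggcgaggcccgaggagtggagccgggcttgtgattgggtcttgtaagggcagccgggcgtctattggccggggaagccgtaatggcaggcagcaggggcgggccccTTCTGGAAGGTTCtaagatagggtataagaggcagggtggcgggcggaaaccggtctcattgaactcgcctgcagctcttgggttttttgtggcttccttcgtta
DNAJA1: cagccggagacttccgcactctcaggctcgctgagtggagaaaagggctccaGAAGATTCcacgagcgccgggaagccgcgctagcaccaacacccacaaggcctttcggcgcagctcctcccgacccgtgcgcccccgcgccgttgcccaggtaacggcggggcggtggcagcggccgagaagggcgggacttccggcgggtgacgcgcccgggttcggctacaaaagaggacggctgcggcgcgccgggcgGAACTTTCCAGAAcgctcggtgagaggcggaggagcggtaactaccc
The HSPA8 window holds the 3-unit form at 2 places, from −230 to −218 and from −55 to −43 relative to the start, and the DNAJA1 window holds it from 4 to 16. A promoter was found for 64 of the 71 members. The short form occurred in 14 of these (21.9%), beside 13.7% of 27303 promoters of the same length, and the 3-unit form in 4 (6.25%), beside 0.487%. Among promoters of protein-coding genes the shares were 11.4% and 0.36%. By compartment, the short form was in 12 of 41 cytosolic, 0 of 13 ER and 2 of 9 mitochondrial promoters. The members with the 3-unit form were HSPA8, DNAJA1, DNAJB6 and HSPA6. Their ratios did not run together: HSPA8 stood at 0.766, DNAJA1 at 0.962 (0.919 to 1.01) and DNAJB6 at 1.14 (1.07 to 1.21), and HSPA6 had 2 and 4 counts. A match is a run of letters, and binding was not measured.

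Both cytosolic HSP90 genes had ratios below 1 by small amounts. HSP90AB1, the constitutive form, had 42309 counts in ASO-1235 and 57542 counts in ASO-NC, a ratio of 0.879 (0.864 to 0.895). HSP90AA1, the inducible form, had 60240 and 75288 counts, a ratio of 0.957 (0.942 to 0.971). With total counts as the scale this ratio turned to the other side of 1. The 3 HSP110 genes, whose products reset HSP70, stayed near 1. HSPA4 was at 1.05 (0.998 to 1.10), HSPH1 at 0.965 (0.917 to 1.02) and HSPA4L, the least counted of them with 144 and 163 counts, at 1.06 (0.759 to 1.47).

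The stress-inducible HSP70 genes, often read as a gauge of the heat shock response, gave no usable value. HSPA1A had 6 counts in ASO-1235 and 14 counts in ASO-NC, and HSPA1B had 0 counts in both libraries. Of the 100-base windows of the HSPA1A transcript, 69.9% also occur in HSPA1B, and 72.7% of those of HSPA1B occur in another gene. Reads from such stretches match more than 1 gene, and how the authors counted them is not given in the sources used here, so these counts are no measure of the level of the pair. HSPA6, which shares 27.6% of its windows with the pseudogene HSPA7, had 2 and 4 counts, and HSPA1L had 4 counts in each library. DNAJB1, the major J protein induced by heat, was well counted, at 6611 in ASO-1235 and 8724 in ASO-NC. Its ratio of 0.906 (0.866 to 0.948) lay below 1 under each scaling alternative run. With the GC and length trend removed, the log2 ratio of DNAJB1 went from −0.14 to −0.03. The chaperone label therefore rests on HSPA5 and DNAJB1 among its 3 markers, and HSPA1A is not informative here.

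Small heat shock proteins were represented by HSPB1 and HSPB8. HSPB1 had 16852 counts in ASO-1235 and 20810 counts in ASO-NC, a ratio of 0.968 (0.941 to 0.997), which lay above 1 with scaling by total count and with the GC and length trend removed. HSPB8, which works with BAG3 to send damaged proteins to autophagy, had 3589 and 3748 counts, a ratio of 1.15 (1.07 to 1.22). HSPB7, a heart and muscle form, reached 1 CPM in ASO-NC alone, with 27 and 62 counts. Its ratio of 0.521 is past 1.5-fold, but the interval of 0.253 to 1.02 includes 1. HSPB2 and HSPB3 had 0 counts in both libraries, and HSPB6 and HSPB9 had 3 counts or fewer in each. Exons of other genes cover 59.7% of HSPB2 and 38.2% of HSPB6, so the counts of this pair are uncertain.

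Among J proteins of the cytosol and nucleus, DNAJC6 stood out as the highest ratio of all 57 genes. DNAJC6 encodes auxilin, which recruits HSPA8 to clathrin-coated vesicles for uncoating. On the plus strand of chromosome 1 it spans 65248219 to 65415869 (GRCh38). It had 374 counts in ASO-1235 (9.58 CPM) and 240 counts in ASO-NC (5.14 CPM). The ratio of 1.86 (1.47 to 2.36) was called higher under each scaling alternative run, under the other expression minimums and with the GC and length trend removed, though not at 2-fold. Its partner HSPA8 was at 0.766. DNAJC27, a small GTPase with a J domain, was next in this class at 1.29 (1.02 to 1.64), from 307 and 284 counts. DNAJC12, a helper of aromatic amino acid hydroxylases, had 321 and 324 counts, a ratio of 1.18 (0.946 to 1.48). For DNAJA2, of class A, the counts were 3252 and 3371 and the ratio 1.15 (1.08 to 1.24).

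The lowest J protein of this class with an interval below 1 was nuclear. DNAJC9, a histone chaperone of the nucleus, had 836 counts in ASO-1235 and 1306 counts in ASO-NC, a ratio of 0.765 (0.675 to 0.867), although exons of other genes cover 29.1% of its own. DNAJC8, found in splicing complexes, had 3728 and 5080 counts, a ratio of 0.878 (0.826 to 0.932). DNAJC17, also linked to splicing, was at 0.914 (0.780 to 1.07), with exons of other genes over 26.1% of its own. DNAJC21 of ribosome assembly was at 1.08 (1.01 to 1.15), with a log2 ratio of −0.10 once the GC and length trend was removed. DNAJB2 was at 0.845 (0.763 to 0.935), whereas DNAJB6, which keeps aggregating proteins soluble, was at 1.14 (1.07 to 1.21). Of the members at vesicles and endosomes, DNAJC5 had a log2 ratio of 0.00 (−0.08 to 0.08) and DNAJC13 a ratio of 1.10 (1.04 to 1.15). The remaining cytosolic J proteins at 1 CPM, DNAJA4, DNAJB4, DNAJB5, DNAJB13, DNAJC7 and DNAJC24, had intervals that included 1, as did DNAJC22, which was given no compartment.

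In the ER, the 7 chaperones of the lumen all had ratios above 1, between 1.02 and 1.52, beside 7189 of all 14352 genes. Their median GC content was 39.9%. Their median log2 ratio was 0.09, beside 0.21 over all genes in the lowest of 5 equal bins by GC content (27.8% to 40.9%). HSP90B1 lay below 1 with DESeq2 size factors, and HSP90B1, DNAJB11 and DNAJC10 did so with the GC and length trend removed. For DNAJC10, which went from a log2 ratio of 0.09 to −0.24, the length used was 20129 bases, beside a median of 3351 over the 57 genes. DNAJB9, also known as ERdj4 and induced by the unfolded protein response, had 528 counts in ASO-1235 (13.5 CPM) and 416 counts in ASO-NC (8.91 CPM), a ratio of 1.52 (1.26 to 1.83). This call sits at the edge of 1.5-fold and was lost with DESeq2 size factors and with the trend removed. DNAJC3, or p58IPK, a J protein that also restrains the kinase PERK, had 1792 and 1604 counts, a ratio of 1.34 (1.21 to 1.47). HSPA13, a small HSP70 of the ER, had 682 and 662 counts, a ratio of 1.23 (1.06 to 1.44). Removal of the trend took the log2 ratio of HSPA13 from 0.30 to 0.05 and that of DNAJC3 from 0.42 to 0.23. The most counted genes of the lumen had ratios near 1. HSPA5, also called BiP and the central HSP70 of the ER, had 17616 and 20076 counts, a ratio of 1.05 (1.02 to 1.08). HSP90B1, the ER form of HSP90, had 8469 and 9963 counts, and its ratio was 1.02 (0.975 to 1.06). DNAJC10, a J protein that reduces disulfide bonds, was at 1.07 (1.01 to 1.12), and DNAJB11, the BiP partner ERdj3, at 1.05 (0.942 to 1.18), with exons of other genes over 23.2% of its own.

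The promoters of HSPA5, HSP90B1 and DNAJB9 are shown because the first pair hold the ER stress element, whose CCACG part DNAJB9 also has. The ER stress element was searched as CCAAT and CCACG with 9 bases between them, and its CCACG part also alone, each on both strands. Capitals mark the whole element in HSPA5 and HSP90B1 and CCACG in DNAJB9. The windows are chr9:125241294-125241593 (HSPA5, minus strand), chr12:103930160-103930459 (HSP90B1, plus strand) and chr7:108569624-108569923 (DNAJB9, plus strand), from RefSeq on GRCh38.p14.
HSPA5: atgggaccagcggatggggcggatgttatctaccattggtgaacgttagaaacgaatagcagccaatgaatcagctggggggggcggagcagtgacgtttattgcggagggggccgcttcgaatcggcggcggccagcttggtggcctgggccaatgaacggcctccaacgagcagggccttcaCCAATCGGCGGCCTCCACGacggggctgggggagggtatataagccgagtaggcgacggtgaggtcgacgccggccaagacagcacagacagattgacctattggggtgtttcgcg
HSP90B1: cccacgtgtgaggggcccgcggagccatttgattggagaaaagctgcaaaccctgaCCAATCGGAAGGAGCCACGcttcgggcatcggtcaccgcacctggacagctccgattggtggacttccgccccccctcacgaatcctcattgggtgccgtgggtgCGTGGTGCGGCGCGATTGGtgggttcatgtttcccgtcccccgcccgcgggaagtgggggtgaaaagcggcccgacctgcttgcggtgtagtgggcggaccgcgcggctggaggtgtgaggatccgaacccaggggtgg
DNAJB9: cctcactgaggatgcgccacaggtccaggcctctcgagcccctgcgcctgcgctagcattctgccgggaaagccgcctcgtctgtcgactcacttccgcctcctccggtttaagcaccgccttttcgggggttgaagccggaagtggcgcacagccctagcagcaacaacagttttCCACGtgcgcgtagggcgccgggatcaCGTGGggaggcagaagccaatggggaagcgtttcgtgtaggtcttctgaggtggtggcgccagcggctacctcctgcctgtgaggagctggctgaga
The whole element occurred in 2 of 64 member promoters, once in HSPA5 and at 2 places in HSP90B1. It occurred in 0.0806% of 27303 promoters and in 0.124% of those of protein-coding genes. CCACG alone occurred in 9 of 13 ER promoters (69.2%), 6 of 9 mitochondrial promoters (66.7%) and 19 of 41 cytosolic promoters (46.3%). Its share was 53.1% of all member promoters, beside 37.9% of all promoters and 44.1% of those of protein-coding genes. The 2 genes with the whole element had log2 ratios of 0.07 and 0.02, within the range of the 11 ER genes whose windows lack it, which ran from −0.33 for DNAJC14 to 0.70 for DNAJC25. The motif TGATGNAA, linked to ATF4, occurred in 1 member promoter, that of HSPA4L, beside 3.67% of all promoters.

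The 7 J proteins of the ER membrane spread more widely than the lumen genes, between log2 ratios of −0.33 and 0.70. DNAJC25 had 372 counts in ASO-1235 (9.53 CPM) and 274 counts in ASO-NC (5.87 CPM), a ratio of 1.62 (1.29 to 2.04). Removal of the GC and length trend ended this call, and exon bases shared with other genes, 13.8% of its own, belong to the readthrough gene DNAJC25-GNG10. DNAJB14, which faces the cytosol and helps clear misfolded membrane proteins, had 1930 and 1556 counts, a ratio of 1.48 (1.35 to 1.63), just under 1.5-fold. Its close relative DNAJB12 had 2467 and 3269 counts, a ratio of 0.902 (0.837 to 0.972). With the GC and length trend removed, the log2 ratio of DNAJB14 was 0.27 and that of DNAJB12 −0.02, and the pair differ in GC content, 34.3% and 56.5%. DNAJC14 had 553 and 833 counts, the lowest ratio at 0.794 (0.679 to 0.926), with exons of other genes over 58.1% of its own. DNAJC1, with 613 and 743 counts, DNAJC16 and DNAJC18 had intervals that included 1.

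The 9 mitochondrial chaperones all stayed within 1.5-fold. The interval lay below 1 for 3 of them (33.3%) and above 1 for 1 (11.1%), beside 23.0% and 22.8% of all genes. HSPA9, or mortalin, which pulls proteins through the inner membrane, had 19028 counts in ASO-1235 and 22952 counts in ASO-NC, a ratio of 0.991 (0.965 to 1.02). HSPD1, or HSP60, had 13877 counts in ASO-1235 and 17087 in ASO-NC, or −0.04 as a log2 ratio (−0.09 to 0.00). Its lid HSPE1, or HSP10, was at a ratio of 1.04 (0.860 to 1.24). HSPE1 had only 438 and 506 counts, far fewer than its partner, and 23.9% of its exon bases are shared with the readthrough gene HSPE1-MOB4 or with HSPD1 on the other strand, so its level is uncertain. Of the J proteins of import, DNAJC15 had 2598 counts in ASO-1235 and 2634 in ASO-NC, a ratio of 1.18 (1.09 to 1.27). Its log2 ratio of 0.24 became 0.0002 with the GC and length trend removed. Its paralog DNAJC19 had 1717 and 2069 counts, a ratio of 0.992 (0.905 to 1.09). DNAJA3, the J protein partner of HSPA9 in the matrix, had 1914 and 2587 counts, a ratio of 0.885 (0.813 to 0.963). DNAJC11, linked to cristae, had 1847 and 2614 counts, a ratio of 0.845 (0.776 to 0.920), with exons of THAP3 over 27.9% of its own. DNAJC4 had 1476 and 2133 counts and the lowest ratio of this class, 0.827 (0.752 to 0.910). On the log2 scale it was −0.27, and −0.08 with that trend removed. DNAJC30 had 1155 and 1367 counts, a ratio of 1.01 (0.903 to 1.13).

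Transcript GC content moved with these ratios. With all genes in 5 equal bins by GC content, the median log2 ratio was 0.21 in the bin of lowest GC content and −0.19 in that of highest. Median GC content was 41.3% in the ER class, 45.2% in the cytosolic class and 50.2% in the mitochondrial class. The median log2 ratios of these classes were 0.09, 0.00 and −0.01. The part of GC content in these ratios was not tested beyond removing a fitted trend. With the trend on GC content and length removed, the medians were 0.04 in the ER, −0.05 in the cytosolic and −0.10 in the mitochondrial class. DNAJC6 then had a log2 ratio of 0.75, DNAJC25 of 0.58, DNAJB9 of 0.46 and DNAJB14 of 0.27. Of the 57 genes, 13 changed sign. HSP90B1, DNAJB11, DNAJC10, DNAJC16, HSPA4, HSPA4L, DNAJB4, DNAJC13, DNAJC21 and DNAJC24 turned below 1, and DNAJC1, DNAJC17 and HSPB1 turned above. HSPA8, at a GC content of 47.0%, had log2 ratios of −0.38 before and −0.39 after.

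**Figure D3:**
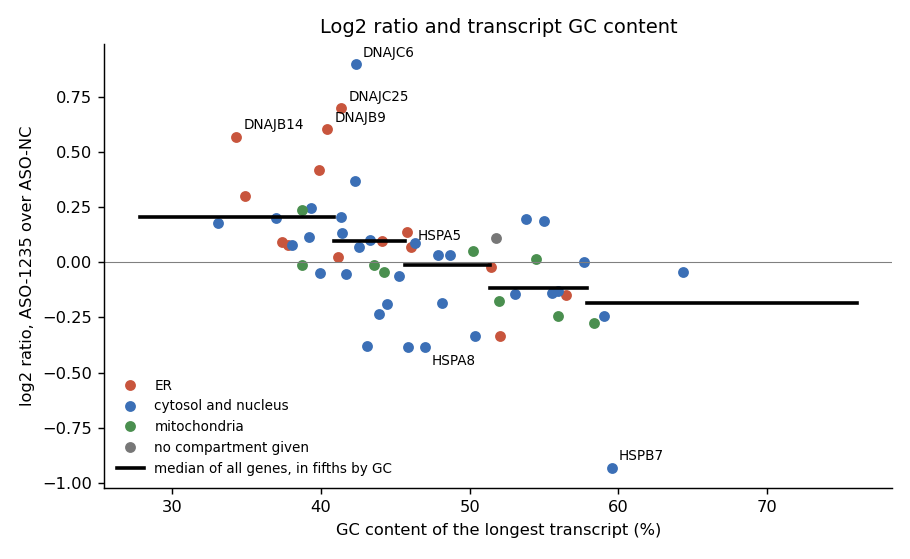
Log2 ratio, ASO-1235 over ASO-NC, of the 57 chaperone genes against the GC content of the longest transcript, coloured by compartment, with black bars for the median of all genes in 5 equal bins by GC content. The all-gene median falls with GC content, and most ER genes lie at the low-GC side. DNAJC6, DNAJC25 and DNAJB9 lie above the bars of their range, and HSPA8 and HSPB7 below.

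Genes that work with the cytosolic chaperones also stayed within 1.5-fold. Of 28 heat shock factors and co-chaperones, 25 reached 1 CPM, 0 were called in either direction, and the median log2 ratio was −0.10, with 6 intervals above 1 (24%) and 11 below 1 (44%), beside 22.8% and 23.0% of all genes. Such shares are larger among well-counted genes: of the 1822 genes at 100 CPM or more, 27.3% had an interval above 1 and 50.3% below 1. HSF1 was at 1.06 (0.982 to 1.13) and HSF2 at a log2 ratio of 0.18 (0.00 to 0.35), while HSF4 had the lowest ratio of the list, 0.696 (0.600 to 0.807), from 576 and 989 counts. At the low end were also AHSA1, which speeds up HSP90, at 0.794 (0.745 to 0.847), and BAG2 from 33 and 52 counts. CHORDC1, an HSP90 partner, and BAG4, an exchange factor of HSP70, led the list at 1.23 (1.08 to 1.39) and 1.21 (1.04 to 1.42). Their log2 ratios of 0.29 and 0.28 became 0.02 and 0.11 with the GC and length trend removed. That of HSF1 then rose from 0.08 to 0.26, and the list median was −0.04. The cytosolic folding chamber TRiC and its feeder prefoldin had 13 of 14 genes at 1 CPM and 0 calls. Their median log2 ratio was −0.02 (0.06 with scaling by total count and −0.07 with the GC and length trend removed). Their ratios ran from 0.841 (0.759 to 0.931) for PFDN2 to 1.19 (1.14 to 1.24) for PFDN4, with CCT5 at 0.852 (0.827 to 0.877), CCT3 at 0.902 (0.874 to 0.930), VBP1 at 1.18 (1.05 to 1.32) and CCT2 at 1.08 (1.04 to 1.13).

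Among genes of ER folding and the unfolded protein response, all 31 reached 1 CPM, 2 were called higher and 0 lower, and the median log2 ratio was 0.01. The share called higher was 6.45%, beside 5.20% of all genes. Intervals lay above 1 for 12 (38.7%) and below 1 for 11 (35.5%), beside 22.8% and 23.0% of all genes. The list is better counted, with median levels of 76.1 CPM in ASO-1235 and 75.9 CPM in ASO-NC, beside 19.1 and 19.0 CPM over all genes. Of genes at 100 CPM or more, 27.3% had an interval above 1 and 50.3% below 1. Removal of the GC and length trend left the same 2 calls and a median of −0.06. The 2 called genes act downstream of ATF4: PPP1R15A, which restarts translation, had 3777 counts in ASO-1235 and 2621 counts in ASO-NC, a ratio of 1.72 (1.61 to 1.85). DDIT3, or CHOP, had 903 and 715 counts and a ratio of 1.51 (1.31 to 1.74). Its call was lost with DESeq2 size factors. The sensor genes ERN1, EIF2AK3 and ATF6 were at 1.33 (1.16 to 1.52), 1.28 (1.13 to 1.45) and 1.29 (1.22 to 1.36), whereas ATF6B, the other ATF6-type gene of the list, was at 0.790 (0.733 to 0.850). Removal of the GC and length trend took the log2 ratio of ATF6 from 0.36 to 0.18 and of ATF6B from −0.34 to −0.18. That of EIF2AK3 went from 0.36 to 0.28, while that of ERN1 stayed at 0.41. ATF4 was at 1.10 (1.07 to 1.13), whereas XBP1, a target of ATF6 and substrate of ERN1, was at 0.876 (0.859 to 0.893). With that trend removed, the log2 ratio of ATF4 rose from 0.13 to 0.29 and that of XBP1 fell from −0.19 to −0.30. The lowest ratios were those of SDF2L1 at 0.753 (0.555 to 1.02), ERP29 at 0.761 (0.712 to 0.812) and CRELD2 at 0.784 (0.686 to 0.894). Among abundant genes, picked after their values were seen, CALR, a lectin chaperone, was at 0.801 (0.776 to 0.826) and P4HB, a disulfide isomerase, at 0.823 (0.800 to 0.846). CANX, also a lectin chaperone, was at 1.05 (1.02 to 1.08). Removal of the GC and length trend took the log2 ratio of CALR from −0.32 to −0.19. That of P4HB went from −0.28 to −0.11 and that of CANX from 0.07 to −0.07. HYOU1, the ER partner of HSPA5 in the HSP110 family, was at 1.01 (0.945 to 1.08).

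**Figure D4:**
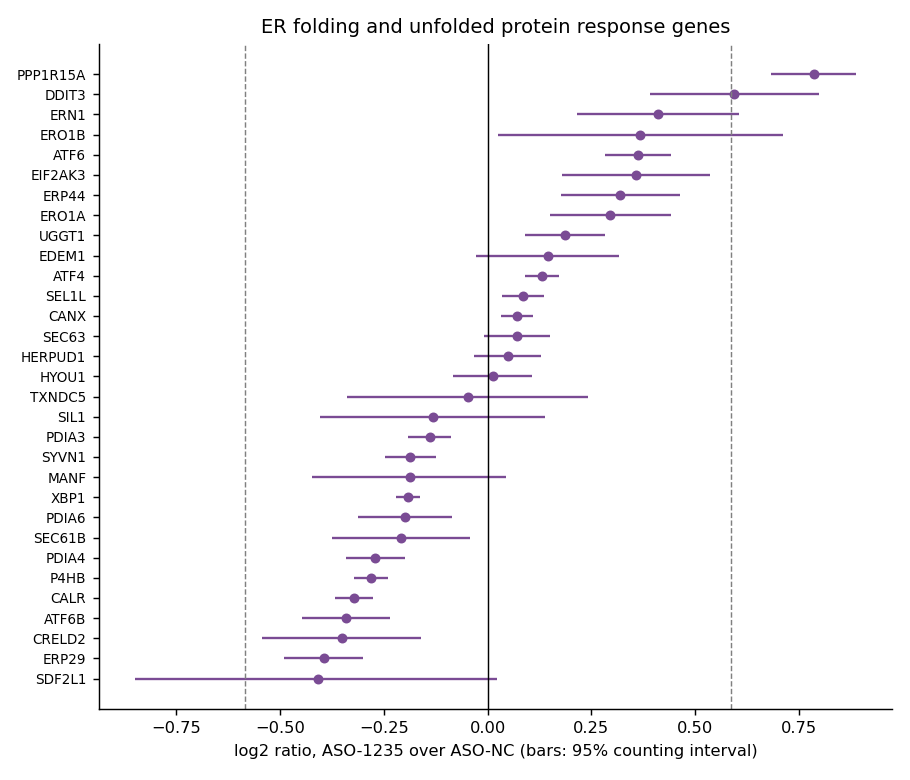
Log2 ratio, ASO-1235 over ASO-NC, of the 31 genes of ER folding and the unfolded protein response, sorted, with bars for the 95% counting interval and dashed lines at 1.5-fold. PPP1R15A at 1.72 and DDIT3 at 1.51 lie past the right line, and SDF2L1, ERP29 and CRELD2 lie at the low end without reaching the left one.

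In mitochondria, 20 of 21 genes of import, folding and proteolysis reached 1 CPM and 0 were called. Their median log2 ratio was −0.03, 0.06 with scaling by total count and 0.003 with the GC and length trend removed. TRAP1, the HSP90 of mitochondria, had 2496 counts in ASO-1235 and 4011 counts in ASO-NC, a ratio of 0.744 (0.693 to 0.799), the lowest of the list. The protease gene HTRA2 was at 0.747 (0.593 to 0.938) and ATF5, which encodes a factor of the mitochondrial stress response, at 0.774 (0.698 to 0.859). At the other end stood CLPX, the unfoldase of a matrix protease, at a log2 ratio of 0.32 (0.19 to 0.45), and the exchange factors of HSPA9, GRPEL2 at a ratio of 1.19 (1.04 to 1.36) and GRPEL1 at 1.18 (1.06 to 1.32).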

How the data were processed

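Polyadenylated RNA of 2 HCC1954 libraries, labelled ASO-1235 and ASO-NC, was sequenced. The authors deposited raw counts per gene, without normalization as far as the values show. Per the submitters' processing notes, the tools were STAR 2.7.11a and featureCounts 2.0.6 and the build hg38. Which annotation release and strand setting served, and how reads with several matches were treated, is not given in the sources used here. Therefore reads of overlapping or antisense genes cannot be told apart.

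All 62699 IDs matched a name. The 3 lines around 1 ID without counts were left out. Gene type, coordinates, longest transcript and GC content came from GENCODE 29 (GRCh38), in which 58206 IDs were found. TMM factors (edgeR 4.0.16, R 4.3.3), used for scaling alone, were 1.03 for ASO-1235 and 0.971 for ASO-NC. Genes had to reach 1 CPM before scaling. Log2 ratios carry a prior count of 0.5. Intervals are Clopper-Pearson at 95% on counts divided by 2. They cover counting error only: reads lack molecular identifiers and do not stand for independent molecules. The trend on GC content and log2 length was a robust spline fit (5 degrees of freedom per term, statsmodels 0.14.6). Uncertain members share 20% or more of exon bases or 100-base windows with another gene. The calculation was tested on simulated counts, all of them even. The deposited counts were only partly even, so this test cannot show whether intervals on halved counts fit them.

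Alternatives were DESeq2 1.42.0 size factors, upper quartile, total count, totals without mitochondrially encoded genes, other minimums, sizes and intervals, and a prior count of 5. Named in full were members called, the 4 highest and 4 lowest ratios and the 3 highest levels per length of each compartment, and for other lists the called genes, the 3 highest and 3 lowest ratios and the main regulators. Other members are named with shorter values. Members, compartments, lists and this rule were chosen with earlier results of these data known. Protein sequences were not used here. Promoters came from RefSeq (GRCh38.p14). Scripts ran in Python 3.11.15 with pandas 2.3.3, scipy 1.17.1 and numpy 2.4.6.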

Additional observations from a re-analysis of the deposited data

How the results depend on the processing

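No paired analysis was possible because each group has 1 library. Nor could a library be left out. With the GC and length trend removed, 1 chaperone gene was called higher, DNAJC6, against 3 otherwise. At 2-fold 0 were called higher, beside 2.40% of all genes. At a smaller size of change (0.32 on the log2 scale) 6 were higher and 4 lower (DNAJC14, DNAJC9, HSPA14 and HSPA8), beside 12.0% and 8.79% of all genes. Called lower was 1 gene with DESeq2 size factors and 1 with counts as deposited, HSPB7 each time, beside 2.45% and 2.95% of all genes. Without an expression minimum 1 was called lower, DNAJC28, beside 1.39% of all genes. HSPA12B then joined those called higher, which made 4 genes, beside 3.77% of all genes. Scaling by total count moved the median log2 ratio of all chaperone genes to 0.12 and of the mitochondrial class to 0.072, with all genes moving by 0.08. Without the 8 members of uncertain counts, an alternative chosen after the data were seen, the median over chaperone genes was 0.07 and that of the ER class 0.12. Among the 57 single log2 ratios, 8 changed sign with scaling by total count, 3 with DESeq2 size factors and 13 with the trend removed, and the called genes kept theirs. Members under about 100 counts, such as HSPB7, DNAJC18 and HSPA2, have intervals that reach past 1.5-fold on at least 1 side. The cause of these shifts was not tested.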

Other observations

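Below 1 CPM lay 14 of the 71 chaperone genes. DNAJB8, HSPA1B, HSPB2 and HSPB3 had 0 counts in both libraries, with HSPA1B and HSPB2 among the members of uncertain counts. DNAJC28, which was given no compartment, had 0 counts in the ASO-1235 library and 14 in the ASO-NC library, and HSPA12B, a distant HSP70 relative, had 37 and 19 counts. DNAJC5B had 12 counts in each, DNAJC5G had 0 and 3, and DNAJB7, with exons of other genes over 24.2% of its own, had 0 and 2. Of the 15 symbols left out as not protein coding, 10 had 0 counts in both libraries. The highest was HSP90AA2P, a pseudogene of HSP90AA1, with 42 counts in ASO-1235 and 62 in ASO-NC, beside 60240 and 75288 counts for HSP90AA1. In the list of TRiC and prefoldin, PFDN5 had 1 count in ASO-1235 and 0 in ASO-NC. In the list of heat shock factors and co-chaperones, CRYAB, a small heat shock protein gene named outside the HSPB scheme, had 4 and 0 counts. Exons shared with other genes were not searched for the genes of these lists, so low counts of PFDN5 and CRYAB need not mean absent RNA.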
